A study of Homo sapiens with 6 samples.

Results

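The mRNAs of the splicing regulators of the hnRNP and SR families were compared between RNA pulled down with the FERRY complex and RNA pulled down with its affinity tag. Members were the protein-coding genes of the count table whose symbols follow the HNRNP letter and number scheme or the SRSF number scheme, leaving out the HNRNPCL genes. This rule took 31 of the 60676 genes, 19 HNRNP and 12 SRSF genes, and all 31 were among the 15546 genes with enough counts to be tested. HNRNPA2B1, whose symbol has a different form, is not a member and is described with the related genes.

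FERRY is a complex of TBCK, PPP1R21, C12orf4, CRYZL1 and GATD1 that binds the active form of the early endosomal GTPase RAB5 and also binds mRNA. The complex fused to glutathione S-transferase (GST-Ferry), or GST alone as the control bait, was held on glutathione resin and mixed with lysate of suspension-grown HEK 293, an established line from human embryonic kidney. Each bait gave 3 strand-specific libraries of RNA depleted of ribosomal RNA. The columns of the table are named control and sample, and reading control as GST and sample as GST-Ferry is an assumption from those words. Whether replicates stem from separate cultures is not stated in the labels, and the spread behind each p-value may be technical. Every library came from the same cell line, and RNA of the input lysate was not analysed here. The values therefore compare what the baits recovered, relative to the total of each library, and do not measure the level of an mRNA in the cells. In a lysate, fewer cells with an mRNA also cannot be told apart from less of it in each cell.

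hnRNP proteins coat nascent transcripts and, among many other roles, often repress the use of exons. SR proteins carry 1 or more RNA recognition motifs and a region rich in arginine and serine, the RS domain, and typically promote the use of exons by recruiting the splicing machinery. Many genes of both families limit their own output by splicing a poison exon or keeping an intron, which gives transcripts open to nonsense-mediated decay (NMD). The measurements here concern the mRNAs that encode these proteins, not the proteins bound to RNA.

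The RS domain is encoded by runs of alternating arginine codons (AGA, AGG or CGN) and serine codons (AGC, AGT or TCN), whose number differs between the SRSF mRNAs. For each SRSF mRNA, the 90-base window of 30 codons within 1 coding exon that holds the most adjacent arginine and serine codons was read from the GENCODE 29 transcript sequence, on GRCh38. The windows of the 3 SRSF mRNAs with the lowest fold changes and of SRSF9, with the highest, are shown to compare these runs, and those of SRSF2 and its relative SRSF8 to show how alike their sequences are. Capitals mark codons that belong to an adjacent arginine and serine pair. SRSF11 (chr1:70244685-70244774, plus strand) had 12 such pairs in its window, SRSF6 (chr20:43460959-43461048, plus strand) 15, SRSF5 (chr14:69771225-69771314, plus strand) 23, SRSF9 (chr12:120462058-120462147, minus strand) 7, SRSF2 (chr17:76736359-76736448, minus strand) 23 and SRSF8 (chr11:95067623-95067712, plus strand) 15. The number of pairs in the window did not follow the fold change: the window of SRSF12, not shown, held 7 pairs, as many as that of SRSF9, and that of SRSF3 held 3. Since a window had to lie within 1 exon, its count can differ from that of the whole coding sequence. The whole coding sequences of SRSF12 and SRSF3 held 26 and 25 pairs, against 9 for SRSF9. All 6 windows are coding sequence, given 5′ to 3′ along the mRNA.
SRSF11: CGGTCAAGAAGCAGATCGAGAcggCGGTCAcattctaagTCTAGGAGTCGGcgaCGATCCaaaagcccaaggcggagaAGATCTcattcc
SRSF6: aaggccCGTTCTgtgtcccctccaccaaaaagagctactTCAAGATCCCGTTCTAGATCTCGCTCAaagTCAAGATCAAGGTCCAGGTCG
SRSF5: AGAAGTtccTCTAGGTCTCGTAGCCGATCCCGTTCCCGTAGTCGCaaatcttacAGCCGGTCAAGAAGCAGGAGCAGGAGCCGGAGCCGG
SRSF9: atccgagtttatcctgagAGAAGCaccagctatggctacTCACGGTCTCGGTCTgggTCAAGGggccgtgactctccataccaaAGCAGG
SRSF2: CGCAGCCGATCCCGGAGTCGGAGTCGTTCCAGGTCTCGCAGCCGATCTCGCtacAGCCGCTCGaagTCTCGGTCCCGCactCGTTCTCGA
SRSF8: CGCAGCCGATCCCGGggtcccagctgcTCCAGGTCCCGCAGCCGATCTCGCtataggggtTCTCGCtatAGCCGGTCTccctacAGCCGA

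Library totals ran from 2454538 to 10466520 counts, with the GST-Ferry libraries 2 and 3 the shallowest, and the members' counts per library ran from 52 for SRSF12 in GST-Ferry 3 to 15758 for HNRNPU in GST 2. Reads of the gene of the bait subunit PPP1R21 stood at 39.4 to 44.6 CPM with the GST bait and 798, 18290 and 37618 CPM with GST-Ferry 1, 2 and 3. The higher values were in the columns read as GST-Ferry. Reads of TBCK and C12orf4 were also higher there, while CRYZL1 and GATD1 did not pass the test (edgeR adjusted p = 0.248 and 0.808). The origin of the reads of these bait genes was not tested, nor was the lower level of PPP1R21 in GST-Ferry 1. All 9 genes of a list of HEK 293 markers had at least 1 CPM in every library, and 6 of 10 markers of other cell types stayed under 1 CPM in all of them. Another 2 of the 10 had at least 1 CPM in every library, COL1A1 (18.3 to 57.4 CPM) and COL3A1 (3.21 to 5.97 CPM). COL1A1 lay above the HEK 293 markers PAX2, LHX1, EPCAM and NEFM in every library. The summed level of the HEK 293 markers was 1032 to 1207 CPM with the GST bait and 1511 to 2212 CPM with GST-Ferry, and its part in the members' differences was not tested. VIM made up the largest part of this sum, with means of 716 CPM for GST and 1117 CPM for GST-Ferry. KRT8, KRT18, NEFL and NEFM were also higher on average with GST-Ferry. PAX2, LHX1 and EPCAM changed little, and CDH2 was lower (138 and 121 CPM). The library GST 3 stood apart: on the first principal component (42.9% of the variance) it lay at -56.4, against -13.2 and -15.1 for GST 1 and GST 2, while GST-Ferry 1, at 4.43, lay nearest to the GST libraries. Counts of members and medians of the families are given with and without these libraries.

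No hnRNP or SRSF mRNA passed the test between baits, and the families leaned to opposite sides. The median log2 fold change of the 19 HNRNP mRNAs was 0.27, and 13 of them were above 0. For the 12 SRSF mRNAs the median was -0.28, and all but SRSF9 and SRSF8 were below 0. Over all 15546 genes tested the median was -0.03, with 7427 above 0 and 8119 below. The 31 members together had a median of -0.03, and their fold changes ran from -0.71 for SRSF11 to 0.58 for SRSF9 on the log2 scale.

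In edgeR's quasi-likelihood test, adjusted over all genes by Benjamini-Hochberg, 0 of 31 members were enriched, against 0.592% of all genes tested, and 0 were depleted, against 0.0322%. The lowest adjusted p of a member was 0.111, for SRSF11. At an unadjusted p under 0.05, 4 members were higher with GST-Ferry (12.9% of the members, against 11.3% of all genes) and 3 were lower (9.68%, against 8.05%), so these shares lay near the background. Groups did not overlap for 7 members that were higher (22.6%, against 14.9% of all genes) and for 5 that were lower (16.1%, against 12.2%). DESeq2 called 0 members enriched and 1 depleted, SRSF11, and limma-voom called 0 in either direction.

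**Figure D1:**
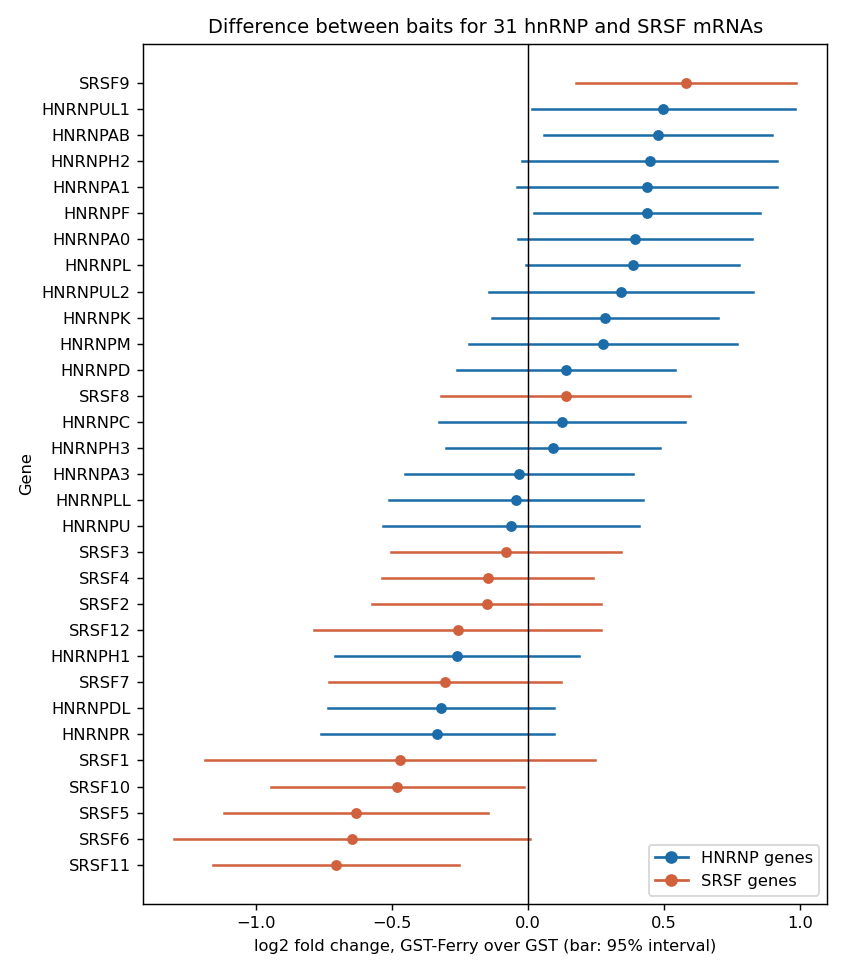
Log2 fold change of GST-Ferry over GST for each of the 31 mRNAs (points, HNRNP in blue and SRSF in orange) with its 95% interval from the edgeR fit (bars). SRSF mRNAs fill the lower end from SRSF11 at -0.71, HNRNP mRNAs fill the upper end, and SRSF9 lies at the top at 0.58.

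SRSF11 had the lowest fold change of all members. SRSF11, also known as p54, is an SR-family protein with 1 RNA recognition motif. It had 355, 467 and 539 CPM (normalised read counts scaled with TMM) in GST 1, 2 and 3 and 306, 265 and 262 CPM in GST-Ferry 1, 2 and 3. All 3 GST-Ferry libraries lay below the lowest GST library. The means were 454 ± 92.4 and 278 ± 24.4 CPM (SD, n = 3 each), and the log2 fold change was -0.71 ± 0.21 (SE, 95% interval -1.16 to -0.26; edgeR adjusted p = 0.111). SRSF11 lies on chromosome 1 (70205682 to 70253052, plus strand, GRCh38 as GENCODE 29 places it). It was called depleted by DESeq2 (log2 fold change -0.73, adjusted p = 0.0231; 1.52% of genes with an adjusted p in DESeq2 were depleted) and by edgeR with no filter on low counts (-0.76, adjusted p = 0.0327; 0.989% of genes depleted).

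SRSF5 and SRSF6 belong, with SRSF4, to the SR proteins with a pair of RNA recognition motifs and a long RS domain. SRSF5 had 264, 369 and 213 CPM in the GST libraries and 166, 181 and 199 CPM in the GST-Ferry libraries, with GST 3 only slightly above GST-Ferry 3. Its log2 fold change was -0.63 ± 0.22 (95% interval -1.12 to -0.15; edgeR adjusted p = 0.163). SRSF6 had 104, 143 and 278 CPM with the GST bait and 106, 104 and 125 CPM with GST-Ferry. The groups overlapped for SRSF6, since GST 1 lay at the level of the GST-Ferry libraries and GST 3 alone was high. Its log2 fold change of -0.65 ± 0.30 (edgeR adjusted p = 0.262) became -0.17 without GST 3. SRSF4 had 197 to 222 CPM in the GST libraries and 181 to 193 CPM in the GST-Ferry libraries, without overlap, and a log2 fold change of -0.15 ± 0.18.

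SRSF10, which acts as a splicing repressor when dephosphorylated, had 288, 321 and 458 CPM with the GST bait and 275, 254 and 236 CPM with GST-Ferry. Its groups did not overlap, though GST 1 and GST-Ferry 1 were close. The log2 fold change was -0.48 ± 0.22 (95% interval -0.95 to -0.01; edgeR adjusted p = 0.243). SRSF12, a close relative, stood at 7.64 CPM per kb of its principal transcript over all libraries, against 187 CPM per kb for SRSF10, and its log2 fold change was -0.26 ± 0.24. The coding sequences of this pair were identical at 69.6% of aligned bases.

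SRSF1, the founding SR protein, had 219, 163 and 476 CPM with the GST bait and 255, 171 and 191 CPM with GST-Ferry. Only GST 3 was high, and GST 2 was the lowest of all 6 libraries. The log2 fold change of -0.47 ± 0.33 (edgeR adjusted p = 0.456) turned to 0.08 without GST 3. SRSF7 and SRSF3, which shuttle between nucleus and cytoplasm and act as adaptors for mRNA export, had overlapping groups. SRSF7 had a log2 fold change of -0.31 ± 0.20, and SRSF3 had 327, 339.6 and 429 CPM with the GST bait and 367, 357 and 311 CPM with GST-Ferry. The SRSF3 log2 fold change of -0.08 ± 0.20 turned to 0.02 without GST 3.

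SRSF2, a marker of nuclear speckles, had 329.6, 361 and 417 CPM with the GST bait and 296, 333 and 368 CPM with GST-Ferry, and the groups overlapped. Its log2 fold change was -0.15 ± 0.19, with a 95% interval of -0.57 to 0.27. SRSF8, whose principal transcript has 1 exon, had 32.7 ± 5.89 CPM with the GST bait and 35.7 ± 2.95 CPM with GST-Ferry, and its log2 fold change was 0.14 ± 0.21. Coding sequences of SRSF2 and SRSF8 were identical at 84.7% of aligned bases, as the windows above show in part. The split of reads between them may depend on how reads with several matches were counted, which is not given in the sources used here. How many reads matched both genes was not measured.

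SRSF9, an SR protein with a short RS domain, had the highest fold change of all members. It had 124, 129.6 and 143 CPM with the GST bait and 172, 209 and 213 CPM with GST-Ferry. Every GST-Ferry library lay above every GST library, and replicates were tight within both baits (132 ± 10.1 and 198 ± 22.3 CPM). The log2 fold change was 0.58 ± 0.19, a 1.50-fold difference with a 95% interval of 1.13 to 1.98-fold (edgeR adjusted p = 0.135). SRSF9 lies on chromosome 12 (120461668 to 120469793, minus strand, GRCh38) and overlaps GATC on the opposite strand. Reads of the pair may be mixed, as the sources used here do not give the strand setting of the counting.

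**Figure D2:**
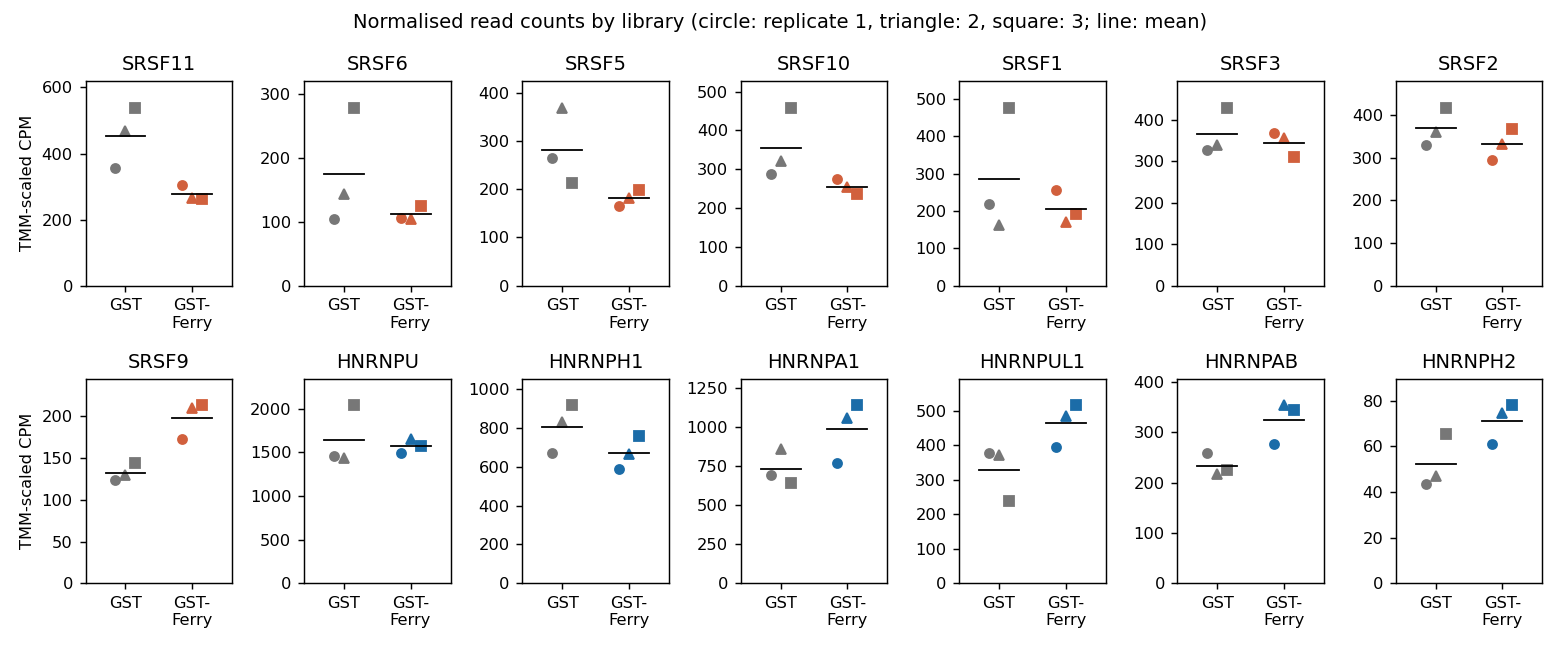
TMM-scaled CPM (vertical axes, each from 0) in the 3 GST libraries (grey) and the 3 GST-Ferry libraries (orange for SRSF, blue for HNRNP) for 14 members, with the mean as a line. SRSF11, SRSF5, SRSF10, SRSF9, HNRNPUL1 and HNRNPAB have groups that do not overlap, and for SRSF1 and SRSF6 GST 3 alone is high.

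The HNRNP mRNAs with the highest fold changes came from several branches of the family. HNRNPUL1, a relative of HNRNPU with a role in the DNA damage response, had 378, 372 and 239.97 CPM with the GST bait and 396, 486 and 516 CPM with GST-Ferry. Its groups did not overlap, but GST 1 and GST-Ferry 1 were close. The log2 fold change was 0.50 ± 0.22 (95% interval 0.01 to 0.98; edgeR adjusted p = 0.245). HNRNPAB, which overlaps PHYKPL on the opposite strand, had 258, 217 and 225 CPM with the GST bait and 277, 353 and 345 CPM with GST-Ferry, also without overlap, and a log2 fold change of 0.48 ± 0.19 (edgeR adjusted p = 0.207).

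HNRNPA1, an abundant shuttling protein that promotes exon skipping, had 694, 859.8 and 641 CPM with the GST bait and 775, 1059 and 1140.3 CPM with GST-Ferry. GST 2 lay above GST-Ferry 1, so the groups overlapped, and the log2 fold change was 0.44 ± 0.22 (95% interval -0.04 to 0.91; edgeR adjusted p = 0.295). GENCODE 29 and the gene names list 74 pseudogenes of HNRNPA1, which together held 0.905% of the counts of the parent gene over the 6 libraries. HNRNPA0, a single-exon relative that binds AU-rich elements, had a log2 fold change of 0.39 ± 0.20 without overlap between groups. HNRNPA3 had one of -0.03 ± 0.20, turning to 0.07 without GST 3.

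The HNRNPF and HNRNPH proteins bind runs of guanines, and the fold changes of their mRNAs lay on both sides of 0. HNRNPH2 had 43.6, 46.9 and 65.6 CPM with the GST bait and 61.0, 74.4 and 77.8 CPM with GST-Ferry, where GST 3 lay above GST-Ferry 1 (log2 fold change 0.45 ± 0.22; edgeR adjusted p = 0.276). HNRNPF had a log2 fold change of 0.44 ± 0.19 with no overlap (edgeR adjusted p = 0.238), and HNRNPH3 had one of 0.09 ± 0.18. HNRNPH1 had 669.5, 827 and 914 CPM with the GST bait and 589, 665 and 758 CPM with GST-Ferry, and its groups overlapped. Its log2 fold change was -0.26 ± 0.21 (95% interval -0.71 to 0.19). Coding sequences of HNRNPH1 and HNRNPH2 were identical at 87.6% of aligned bases, and the difference between their fold changes was not tested.

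HNRNPU, the scaffold attachment factor A that binds RNA and chromatin, had a level per length of 235 CPM per kb of the principal transcript over all libraries, after HNRNPC at 290.4 CPM per kb. It had 1453, 1436 and 2035 CPM with the GST bait and 1491, 1649 and 1576 CPM with GST-Ferry. The GST-Ferry libraries lay between GST 1 and GST 3, and the log2 fold change was -0.06 ± 0.22 (95% interval -0.53 to 0.41), turning to 0.10 without GST 3. HNRNPC, which binds uridine tracts, had 476 ± 84.8 CPM with the GST bait and 519 ± 72.0 CPM with GST-Ferry.

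Of the remaining HNRNP mRNAs, HNRNPK, which binds cytidine-rich RNA through KH domains, and HNRNPL, which binds CA repeats, had groups without overlap (log2 fold changes 0.28 ± 0.19 and 0.38 ± 0.18). HNRNPD, known for the decay of AU-rich mRNAs, had a log2 fold change of 0.14 ± 0.19 and its relative HNRNPDL one of -0.32 ± 0.19, with overlap for both. HNRNPR, close to SYNCRIP, had 475 ± 85.8 CPM with the GST bait and 377 ± 6.91 CPM with GST-Ferry without overlap (log2 fold change -0.33 ± 0.20), and SYNCRIP had a log2 fold change of -0.31 ± 0.24. HNRNPM, HNRNPUL2 and HNRNPLL, with overlap, had log2 fold changes of 0.27 ± 0.23, 0.34 ± 0.22 and -0.04 ± 0.22, the last turning to 0.12 without GST 3. Over all 31 members, no bound of a 95% interval lay further than 1.30 from 0 on the log2 scale.

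Summed over genes, the SRSF mRNAs took a smaller share of each GST-Ferry library than of each GST library. SRSF mRNAs took 0.273%, 0.291% and 0.326% of all counts in GST 1, 2 and 3, and 0.249%, 0.218% and 0.223% in GST-Ferry 1, 2 and 3. HNRNP mRNAs took 0.714% to 0.742% of counts with GST and 0.735% to 0.752% with GST-Ferry. The summed SRSF level as a share of the summed HNRNP level was therefore 36.8%, 40.5% and 45.7% in the GST libraries and 33.9%, 29.2% and 29.6% in the GST-Ferry libraries, without overlap. As means over genes the families separated less. Set against the mean of the GST libraries, the mean log2 level of SRSF mRNAs was -0.20, -0.10 and 0.30 in GST 1, 2 and 3 and -0.21, -0.27 and -0.22 in GST-Ferry 1, 2 and 3, so GST 1 lay beside the GST-Ferry libraries. For HNRNP mRNAs it was -0.02, -0.08 and 0.10 with GST and 0.09, 0.22 and 0.23 with GST-Ferry, with GST-Ferry 1 just under GST 3.

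**Figure D3:**
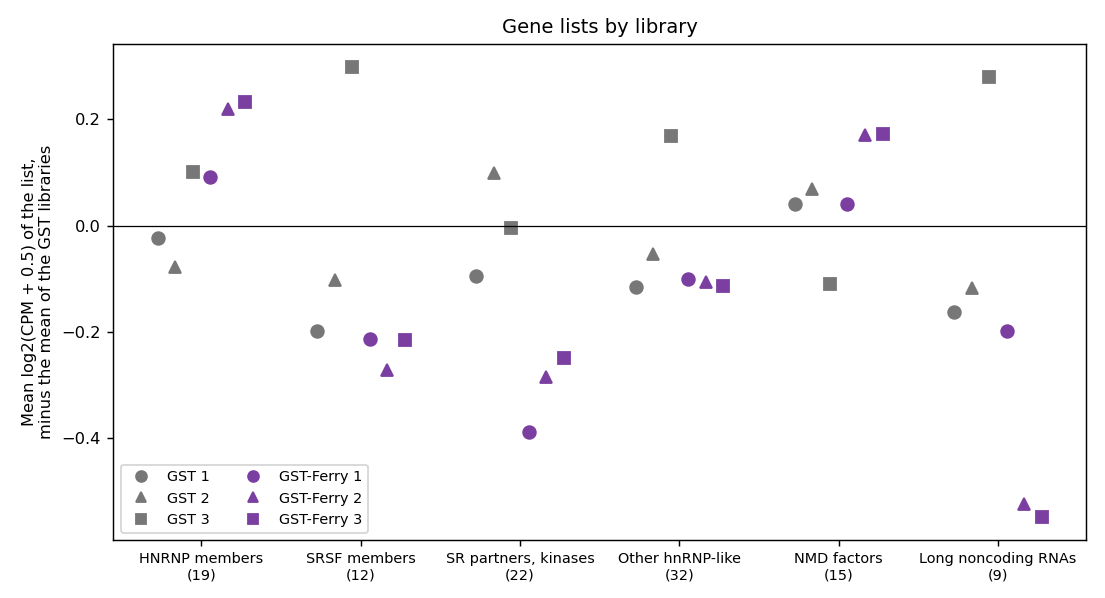
Mean log2(CPM + 0.5) of the genes of each list, minus the mean of the GST libraries (vertical axis), in GST libraries (grey) and GST-Ferry libraries (purple), with the number of tested genes in brackets. GST 3 is the highest library for the SRSF members at 0.30, and the 3 GST-Ferry libraries lie between -0.27 and -0.21.

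The spread within GST exceeded the difference between baits for most members. The log2 range over the 3 GST libraries was larger than the difference of the group means for 24 of 31 members. GST 3 was the highest GST library for 24 members, 11 of the 12 SRSF and 13 of the 19 HNRNP mRNAs, and SRSF5 was the SRSF mRNA for which it was the lowest. Beside the sign changes given above, leaving out GST 3 brought SRSF10 to -0.28, SRSF7 to -0.19, SRSF2 to -0.08, SRSF12 to -0.02, HNRNPR to -0.20, HNRNPUL1 to 0.29 and HNRNPM to 0.06, all nearer to 0. It brought HNRNPUL2 to 0.54, SRSF8 to 0.27 and HNRNPC to 0.26, further from 0. Without GST 3, edgeR called SRSF9 (log2 fold change 0.61, adjusted p = 0.0335) and HNRNPH2 (0.61, adjusted p = 0.0361) enriched, against 4.45% of all genes tested, and SRSF5 depleted (-0.82, adjusted p = 0.0144), against 3.54%. SRSF5 depended on the GST library left out, since without GST 2, its highest, the log2 fold change was -0.41 (edgeR adjusted p = 0.373). Without GST 3, the median of the SRSF mRNAs was -0.10 with 8 of 12 below 0, and that of the HNRNP mRNAs was 0.26 with 16 of 19 above 0.

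Without both GST 3 and GST-Ferry 1, edgeR called 6 members enriched, against 11.5% of genes tested, and 3 depleted, against 6.51%. The enriched members were HNRNPH2, SRSF9, HNRNPF, HNRNPA0, HNRNPAB and HNRNPUL2, with log2 fold changes from 0.55 to 0.75, and the depleted members were SRSF5, SRSF11 and HNRNPDL (-0.73, -0.64 and -0.50). This comparison leaves 2 libraries for each bait. The libraries left out are those furthest from the others of their bait on the first principal component of these same data. Leaving them out lowers the spread within baits, so the calls are a description only. Over all genes, 1754 were enriched and 992 depleted in this comparison, against 92 and 5 with all libraries. Over all 18 refits of the data, the median of the HNRNP mRNAs ran from 0.17 to 0.34 and that of the SRSF mRNAs from -0.39 to -0.08.

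Transcript GC content moved with the fold change over the whole table. Over 12843 protein-coding genes tested, GC content of the principal transcript and log2 fold change had a Pearson correlation of 0.55 and a Spearman correlation of 0.59, a description over genes that share the same 6 libraries. Genes under 40% GC had a median log2 fold change of -0.36 (1864 genes), and genes at 60% or more had one of 0.40 (2107 genes). The 2737 genes at 40% to under 45% GC, which include 12 members, had a median of -0.19, with 1990 below 0. The mean GC content of protein-coding transcripts weighted by CPM was 48.8%, 48.8% and 46.6% in GST 1, 2 and 3, and 49.1%, 49.1% and 49.3% in GST-Ferry 1, 2 and 3, so GST 3 was the library rich in AT-rich transcripts. Members lay at the low end, with a median GC of 43.9% against 48.9% for protein-coding genes tested, and SRSF and HNRNP mRNAs had nearly the same median (43.9% and 44.5%). Within the members the Spearman correlation of GC content and fold change was 0.38 (n = 31). SRSF9, at 52.3% GC, and SRSF4, at 52.2%, were the SRSF mRNAs richest in GC, and SRSF11 (38.3%), SRSF12 (38.0%), SRSF3 (39.3%) and SRSF6 (39.6%) were the poorest.

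When the fit held offsets for transcript length and GC content, the medians of the families stayed on opposite sides of 0. For HNRNP mRNAs the median was 0.25, 16 of 19 being above 0, and SRSF mRNAs had one of -0.18 with 8 of 12 below 0. SRSF5 was little changed at -0.65 ± 0.19, SRSF1 lay at -0.53 ± 0.32 and SRSF9 at 0.43 ± 0.15, whereas SRSF11 came to -0.40 ± 0.16, SRSF6 to -0.31 ± 0.21 and SRSF7 to -0.09 ± 0.15. HNRNPA0, at 41.1% GC, was the member that edgeR called enriched in this fit (0.67 ± 0.15, adjusted p = 0.0471), against 1.05% of genes tested. HNRNPUL1 and HNRNPAB, both above 54% GC, came to 0.29 ± 0.16 and 0.26 ± 0.16.

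Runs of arginine and serine codons set the SRSF mRNAs apart from the others by construction of the RS domain, and SRSF9 had the fewest of them. It had 9 adjacent arginine and serine codons in its whole coding sequence, 4.07 per 100 codons, whereas the other SRSF mRNAs had from 8.26 (SRSF11) to 23.5 (SRSF2) per 100 codons, and no HNRNP mRNA had more than 2.30 (HNRNPA0). Over all protein-coding genes tested, 53 had at least 5 per 100 codons, a bound chosen after the members' values were seen. Of these, 42 were not SRSF genes, and 31 of the 42 lay below 0, with a median log2 fold change of -0.34 and a median GC content of 44.0%. For comparison, 1990 of the 2737 protein-coding genes at 40% to under 45% GC lay below 0, with a median of -0.19. In the fit with offsets for GC content and length the median of the 42 was -0.23. The 555 genes with 2 to under 5 per 100 codons had a median of 0.18 at a median GC content of 53.0%, and of 0.05 with the offsets. Over all 12843 genes the number per 100 codons and the fold change had a Spearman correlation of 0.03. Among the 12 SRSF mRNAs themselves the number per 100 codons did not order the fold changes (Spearman correlation 0.03).

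**Figure D4:**
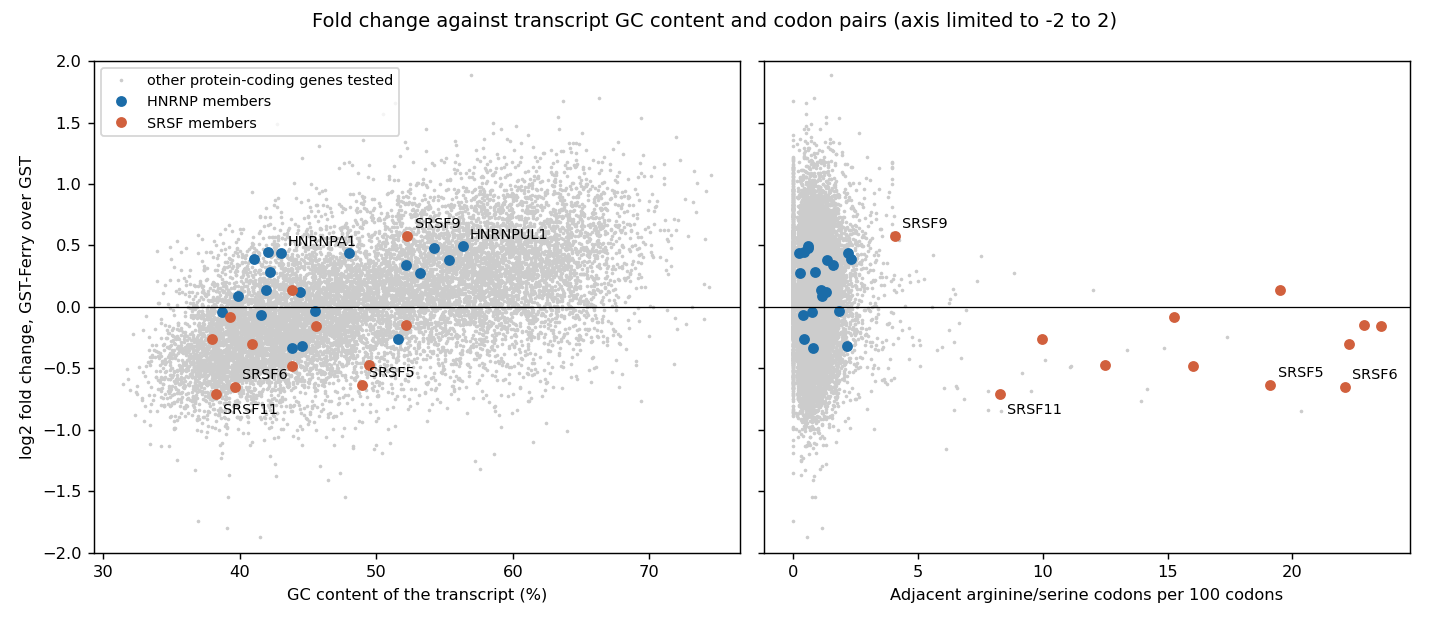
Log2 fold change of GST-Ferry over GST (vertical axis, limited to -2 to 2) against the GC content of the principal transcript (left) and the number of adjacent arginine and serine codons per 100 codons (right), for HNRNP members (blue), SRSF members (orange) and other protein-coding genes tested (grey). Fold change climbs with GC content (Spearman correlation 0.59), and SRSF9, at 4.07 codon pairs per 100 codons, lies far to the left of the other SRSF mRNAs.

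The members were also grouped by their annotated NMD transcripts, as a description with no test. GENCODE 29 lists no NMD transcript for 7 members, all of them HNRNP genes (HNRNPA0, HNRNPA3, HNRNPAB, HNRNPF, HNRNPH2, HNRNPH3 and HNRNPUL2). Of these, 6 lay above 0, with a median log2 fold change of 0.39. The 11 members with 1 such transcript had a median of 0.14. Of the 13 members with 2 or more, 11 lay below 0, with a median of -0.26, and HNRNPD and HNRNPUL1 were the exceptions. Since 8 of these 13 were SRSF genes, this grouping overlaps with the family. The Spearman correlation of NMD transcripts and fold change was -0.51 over the 31 members. Within the families it was -0.44 among the 19 HNRNP mRNAs and -0.13 among the 12 SRSF mRNAs. Over all protein-coding genes tested the medians for these classes were 0.07, -0.02 and -0.06, and the Spearman correlation was -0.12. For the number of annotated transcripts that keep an intron, the Spearman correlation with fold change was 0.006 over the 31 members. It was -0.06 among the HNRNP mRNAs and 0.32 among the SRSF mRNAs. The table counts reads per gene, so the share of reads from NMD transcripts was not measured.

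Genes that work with the SR proteins were described from a list. The 22 genes were SR-related splicing factors, SR protein kinases and the import receptor TNPO3. Of these, 17 lay below 0, with a median log2 fold change of -0.31, and 0 passed edgeR's test. By unadjusted p under 0.05 in that test, 9 of the 22 were lower, against 8.05% of all genes tested. None was higher, against 11.3%. SRRM2, the large scaffold of nuclear speckles and the most abundant of the list, had 1129 ± 195 CPM with the GST bait and 1245 ± 207 CPM with GST-Ferry. The lowest values, named after they were seen, were those of LUC7L3 (507 ± 56.9 and 282 ± 35.8 CPM, log2 fold change -0.84 ± 0.20; edgeR adjusted p = 0.0651) and of its relative LUC7L (-0.84 ± 0.21; adjusted p = 0.0753). The kinases that phosphorylate SR proteins were spread, with log2 fold changes of -0.75 for CLK1, -0.75 for CLK4, -0.24 for SRPK2, -0.17 for CLK2, -0.08 for SRPK1 and 0.29 for CLK3. The median GC content of this list was 44.5%, and 1990 of the 2737 protein-coding genes at 40% to under 45% GC also lay below 0. Its median number of adjacent arginine and serine codons was 5.90 per 100 codons. The list therefore shares genes with the 42 non-SRSF genes rich in such codons described above, and these results are not independent.

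Another list held other RNA-binding proteins, not all of them counted with the hnRNPs, and the import receptor TNPO1. Of the 32 tested, 10 lay above 0 and 22 below, with a median of -0.15, and 0 passed edgeR's test. By unadjusted p under 0.05, 6 of the 32 were higher and 9 lower, against 11.3% and 8.05% of all genes tested. HNRNPA2B1, the partner of HNRNPA1 in the core hnRNP particle and the most abundant of the list, had 1127, 1213 and 916 CPM with the GST bait and 963, 1033 and 1119 CPM with GST-Ferry. Its groups overlapped, at a log2 fold change of -0.06 ± 0.20. The polypyrimidine tract binding proteins, named after their values were seen, lay on both sides of 0: PTBP1 had a log2 fold change of 0.51 ± 0.20 and PTBP2 one of -0.91 ± 0.21 (edgeR adjusted p = 0.196 and 0.0635), with PTBP3 at -0.35 ± 0.29. Their GC contents were 57.8%, 36.9% and 38.5%.

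NMD factors were spread around the median of all genes, with 10 of 15 above 0, a median log2 fold change of 0.05 and 0 past edgeR's test. Of the 15, 3 were higher and 1 lower by unadjusted p under 0.05, against 11.3% and 8.05% of all genes tested. SMG1, the kinase that phosphorylates UPF1 and the most abundant of the list, had 346 ± 53.0 CPM with the GST bait and 269 ± 11.7 CPM with GST-Ferry. A list of long noncoding RNAs was drawn up as nuclear-retained but holds GAS5, OIP5-AS1 and NORAD, which are known to be largely cytoplasmic. Of its 9 tested RNAs, 8 lay below 0, with a median of -0.42 and 0 past edgeR's test. By unadjusted p under 0.05, 0 of the 9 were higher and 3 lower, against 11.3% and 8.05% of all genes tested. MALAT1, a speckle-associated RNA, had 10810, 10699 and 11003 CPM with the GST bait and 7879, 6831 and 6626 CPM with GST-Ferry. GAS5 had the lowest log2 fold change of the list, -0.98 ± 0.27, whereas the nuclear RNAs NEAT1 and KCNQ1OT1 had values of -0.02 ± 0.22 and 0.09 ± 0.23. The mean log2 level of these RNAs was highest in GST 3, at 0.28, as for the SRSF mRNAs, and their part in the SRSF difference was not tested.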

How the data were processed

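The authors deposited 1 table of raw read counts per Ensembl gene, with 60676 genes and 6 libraries. The build GRCh38.p13 and the tools STAR 2.5.2b and bcl2fastq 2.19.1 are listed per the submitters' processing notes. The counting program, its annotation, strand setting and handling of reads with several matches are not given in the sources used here. Near-identical copies and overlapping genes may share reads. Symbols, gene types, positions and transcripts came from GENCODE 29 and a table of gene names. GC content and length are those of 1 transcript per gene, taken by its APPRIS principal rank and then by length.

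Genes passing edgeR's filterByExpr (minimum count 10, minimum total 15) were scaled with TMM. Differences between baits were tested two-sided in R 4.3.3 by the quasi-likelihood method of edgeR 4.0.16, without covariates, and p-values were adjusted over 15546 genes (Benjamini-Hochberg); an adjusted p under 0.05 was called. CPM are TMM-scaled, and the SE and 95% intervals come from this fit. Alternatives were DESeq2 1.42.0, limma-voom (limma 3.58.1), other scalings and filters, offsets from a loess of each library on GC content and length, thinning, a replicate block and left-out libraries. The fit was tested on simulated counts. Values in every library are given for members called, for the 5 with the highest and the 5 with the lowest fold change and for the 3 most abundant of each family; other members appear by fold change, range or related pair, and from each list the most abundant gene where none was called. The members and lists were chosen with earlier results of these data known.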

Additional observations from a re-analysis of the deposited data

How the results depend on the processing

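Of 558 values of single members under the 18 alternatives, 527 kept their sign and their side of the threshold, 15 passed the threshold that they missed as reported and 16, in 7 members, changed sign; the cause was not tested. With GC and length offsets SRSF12 came to 0.068, SRSF3 to 0.19, HNRNPU to 0.18, HNRNPLL to 0.25 and HNRNPA3 to 0.041; with 1 library left out, SRSF1 ran from -0.77 to 0.082, SRSF3 ran from -0.17 to 0.025, HNRNPU ran from -0.17 to 0.096, HNRNPLL ran from -0.21 to 0.12, and HNRNPA3 ran from -0.14 to 0.072, the highest value in each case without GST 3. Without GST 3 and GST-Ferry 1 together SRSF2 came to 0.022, SRSF3 to 0.0024, HNRNPU to 0.16, HNRNPLL to 0.13 and HNRNPA3 to 0.10; thinned to equal depth HNRNPLL came to 0.0023. Members enriched were 1 with GC and length offsets, 6 without GST 3 and GST-Ferry 1 together and 0 to 2 with 1 library left out; members depleted were 1 with no filter, 1 with DESeq2, 3 without GST 3 and GST-Ferry 1 together and 0 to 1 with 1 library left out. The members' median log2 fold change, -0.03 as reported, was 0.18 with GC and length offsets and 0.13 without GST 3 and GST-Ferry 1 together, and ran from -0.14 to 0.10 with 1 library left out.

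Over all genes, 92 were enriched and 5 depleted as reported. These counts were 11 and 0 with RLE size factors, 7 and 0 with library sizes alone, 421 and 323 with no filter, 512 and 179 with DESeq2, 14 and 0 with limma-voom, 163 and 43 with GC and length offsets, 1754 and 992 without GST 3 and GST-Ferry 1 together, and 0 and 0 at a threshold of 0.01. With a minimum count of 50, 13 were depleted, without small and mitochondrially encoded RNAs 9, and at equal depth 13. With 1 library left out, 0 to 701 were enriched and 0 to 558 depleted, the highest of both without GST 3. With the replicate block 167 were enriched and 28 depleted, and 0 members were called; the libraries share only a number, GST 1 correlated best with GST-Ferry 1 (0.25), while GST 2 correlated best with GST-Ferry 3 (0.18) and GST 3 with GST-Ferry 2 (0.12). The GST-Ferry libraries 2 and 3 had the lowest totals, and SRSF12, SRSF8 and HNRNPUL2 had the fewest counts of the members. The SE of their log2 fold changes were 0.24, 0.21 and 0.22. The largest SE of the members were those of SRSF1 (0.33) and SRSF6 (0.30), which had more counts.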
